A study of Homo sapiens with 3 samples.

Results

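Genes that make sterols and fatty acids were followed in A2780, a cell line from an undifferentiated ovarian tumour, with and without exogenous miR-181a. The genes comprise 33 symbols chosen by name: 8 of the mevalonate and isoprenoid steps, 11 of the sterol steps, 7 regulators and sterol carriers, and 7 of fatty acid synthesis. They account for 33 of the 18674 genes and 56 of the 28848 transcripts used from the deposited table. All 33 passed the filter on low values. Polyadenylated RNA was sequenced from cells stably expressing miR-181a (p181a #1 and p181a #2, 1 library each, here pool 1 and pool 2) and from cells with the empty pBABE retroviral vector (1 library). All cells were A2780 grown in serum-containing medium. The protocol describes the miR-181a cells as polyclonal pools, whereas the sample labels say clone, and how independent the cultures were is not stated. The p-values therefore rest on how far these 2 libraries differ, in the gene itself and as a spread that the fit shares across genes. That spread may be technical.

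Cholesterol is built from acetyl-CoA through mevalonate and isoprenoid diphosphates to squalene, which is closed to lanosterol and then trimmed to cholesterol. Fatty acids are built from the same cytosolic acetyl-CoA. Both routes are driven by the SREBP transcription factors, which SCAP carries from the endoplasmic reticulum to the Golgi for cleavage when sterols are low, and which INSIG proteins hold back when sterols are high. INSIG1 is itself an SREBP target, so its transcript is commonly read together with those of the enzymes.

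Coverage, the unit used throughout, is a median of read density along a transcript. It is already per base, so levels can be compared between genes. The table holds no read counts and the depth of each library is unknown. Summed coverage was 907092 in pool 1 and 719263 in pool 2, against 798228 in the vector library. Among 8822 transcripts at 0 in pool 1 and pool 2, 62.9% were above 0 in the vector library, with a 90th percentile of 16.8 and a 99th of 121, and this excess bears on any gene whose vector value is the higher one. Of 5 mesenchymal markers, VIM (2328 and 2007 in the pools, against 1173 in the vector library), CDH2 and COL3A1 were higher in both pools, while COL1A1 (0 and 0.706, against 7.41) and FN1 (0 in both pools, against 2.84) were lower. Of 6 epithelial markers, CDH1 was at 0 in all 3 libraries and the others were lower in both pools, with EPCAM at 0 in both pools, against 66.3 in the vector library. Among 5 ovarian lineage markers, WT1 and SOX17 were at 0 in all 3 libraries, and ESR1 was at 0 in both pools, against 104 in the vector library. Markers of cell types not cultured here were also seen in the vector library. Endothelial KDR and VWF were at 0 in both pools, against 167 and 36.6 in the vector library. Immune CD74 was at 0.400 and 0 in the pools, against 39.2 in the vector library. The 6 adipocyte and hepatocyte markers were at 0 in both pools, against a highest value of 17.4 (APOB) in the vector library. The part of these differences in the results was not tested.

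Most of the lipid synthesis genes stood higher in both pools than in the vector library. Of the 33, 27 were higher in both pools, 4 were lower in both (MVD, HSD17B7, INSIG2 and NPC1), and 2 were split between the pools (GGPS1 and SREBF1). Among all 12552 tested genes 44.6% were higher in both pools and 41.8% lower in both. Among the 2124 tested genes with a pool mean above 50, a level closer to that of these genes, the shares were 77.5% and 7.53%. The median log2 fold of the 33, computed on coverage + 1, was 0.95 in pool 1 and 0.52 in pool 2. The same medians were 0.24 and -0.12 over all tested genes, and 0.64 and 0.30 over those with a pool mean above 50. Of the 33 genes, 22 lay above the median of genes with a pool mean above 50. Since the pool mean is also part of the fold, choosing genes by it tends to raise their folds. No gene of the 33 passed the limma test across all genes at a Benjamini-Hochberg adjusted p of 0.05, and 3 had an unadjusted p under 0.05 (SC4MOL, EBP and INSIG1). The background of that test was 1.0% of tested genes higher and 21.7% lower. Among those with a pool mean above 50 it was 0.188% higher and 0.33% lower. When a gene was counted only if each pool differed from the vector library by 1 log2 unit or more (the size rule), those 3 genes were higher and none was lower, beside 2.53% and 27.3% of all tested genes, or 3.67% and 0.847% of those with a pool mean above 50.

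**Figure D1:**
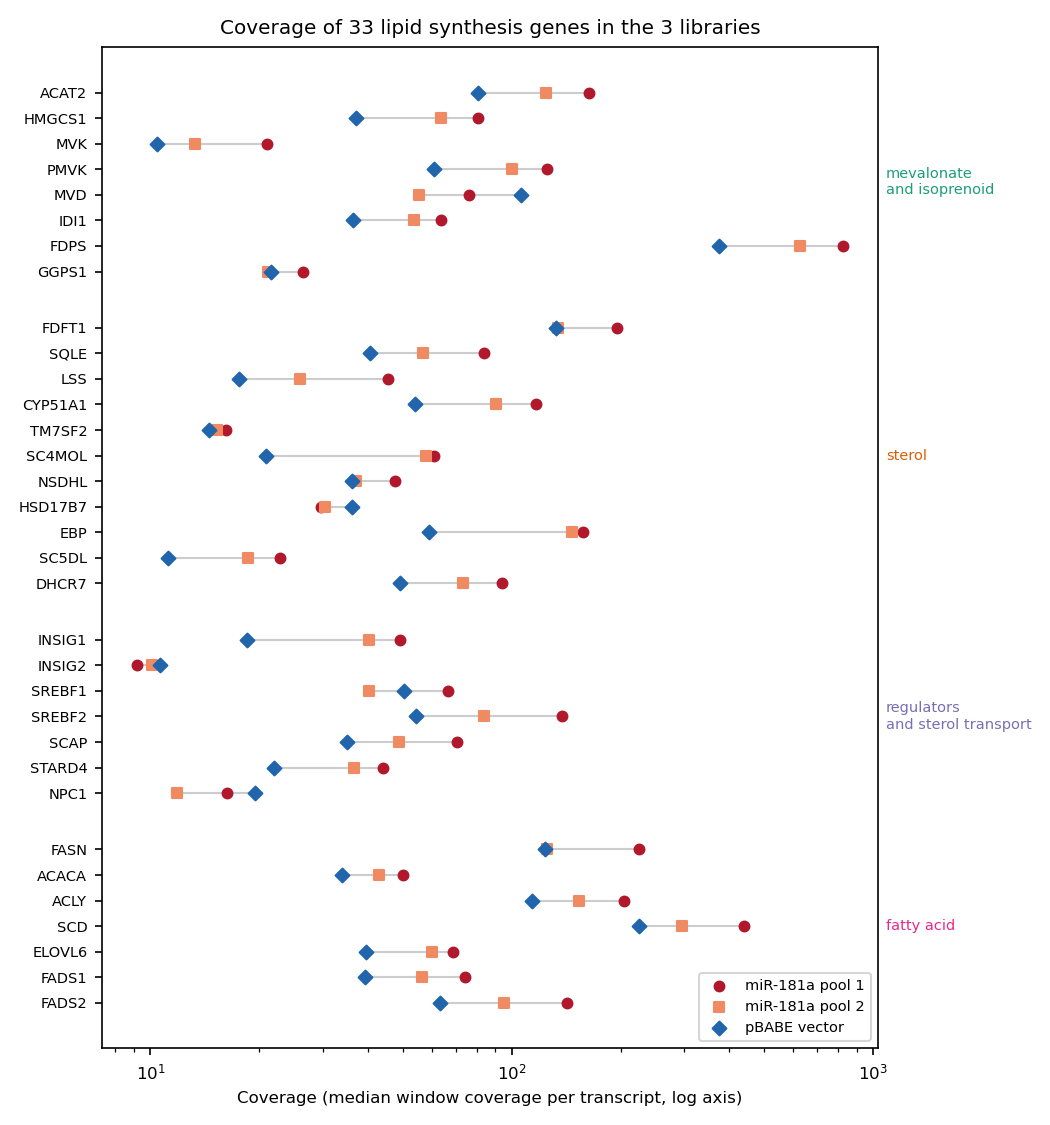
Coverage (log axis) of the 33 genes in miR-181a pool 1, miR-181a pool 2 and the pBABE vector library, grouped by step, with 1 point per library. The vector point lies left of both pool points in 27 genes and right of both in 4.

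The first mevalonate enzymes were higher in both pools, with log2 folds from 0.64 (MVK) to 0.93 (HMGCS1). ACAT2, the cytosolic acetoacetyl-CoA thiolase, had a coverage of 164 in pool 1 and 124 in pool 2, against 80.6 in the vector library. HMGCS1, the HMG-CoA synthase (chromosome 5, 43287572 to 43313614 on GRCh37), had 80.6 and 63.6 in the pools, against 37.1 in the vector library. Its log2 fold was 0.93 (SE 0.26, limma adjusted p = 0.17). PMVK, the phosphomevalonate kinase, had 125 and 100.0 in the pools, against 61.1 in the vector library, a log2 fold of 0.86. The mevalonate kinase gene MVK was expressed at a lower level, with 21.0 and 13.3 in the pools against 10.4 in the vector library. Its smaller margin in pool 2 gave log2 folds of 0.95 and 0.33. ACAT2 shares 29.9% of its exon bases with TCP1 on the opposite strand, and since the library protocol describes no strand marking, reads of that stretch cannot be assigned to either gene.

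MVD, the mevalonate diphosphate decarboxylase (chromosome 16, 88718343 to 88729569), went the other way from its neighbours in the pathway. It had 76.0 and 55.3 in the pools, against 106 in the vector library. Its value of -0.70 on the log2 scale (SE 0.31; limma, adjusted p = 0.273) was the lowest of the 33 genes. A vector value as large as the difference of 40.3 between the vector library and the pool mean occurred in 3.6% of the transcripts at 0 in both pools. The part of that excess in this difference was not tested.

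The isoprenoid steps after MVD were mixed. IDI1, the isopentenyl diphosphate isomerase, had 63.9 and 53.5 in the pools, against 36.3 in the vector library. FDPS, the farnesyl diphosphate synthase (chromosome 1, 155278539 to 155290457), was the most highly covered of the 33 genes, with 825 and 629 in the pools against 374 in the vector library. Both pools exceeded the vector library in each of its 3 transcripts, with log2 folds from 0.94 to 1.16. The annotation lists 8 FDPS and 3 IDI1 pseudogenes, with which reads may be shared. GGPS1, the geranylgeranyl diphosphate synthase that leads away from sterols, had 26.5 and 21.1 in the pools, against 21.6 in the vector library. The vector value lay between the pools in this transcript. In the other transcripts of GGPS1 the pools had 26.4 and 17.9 against 15.8, and 26.4 and 18.1 against 17.1, in the vector library. Over the 8 genes the median log2 fold was 0.98 in pool 1 and 0.58 in pool 2.

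SC4MOL and EBP had the highest log2 folds of the 11 sterol genes. SC4MOL (current symbol MSMO1, chromosome 4, 166248819 to 166264316), the oxidase that removes methyl groups from sterols, had 61.0 and 57.8 in the pools, against 20.9 in the vector library. The pools were close to each other and far from the vector value, a mean fold of 1.46 on the log2 scale (SE 0.19; limma, adjusted p = 0.0531), which ranked 89th from the top of the 12552 tested genes. EBP (X chromosome, 48380187 to 48387104), the sterol isomerase, had 157 and 147 in the pools, against 59.0 in the vector library, a mean fold of 1.35 on the log2 scale (SE 0.17; limma, adjusted p = 0.053) and rank 131. Both sat just outside the threshold and passed it with a pseudocount of 0.1, a stricter filter or no variance trend. The stricter filter also called more of all tested genes higher, and the shares of all genes called in the other settings are not reported here. An unnamed annotated gene on the same strand shares 57.1% of the exon bases of EBP, and reads there cannot be assigned to either.

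The promoter windows of these genes are shown because sterol genes share short elements near the start site. RefSeq windows on GRCh38.p14, from 250 bases before to 50 after a start site, were found for 29 of the 33 genes (41 windows), and none was used for ACAT2, FASN, FDFT1 and SQLE. Capitals mark TCACNCCAC and TCACNCCAT, both forms of the sterol response element, the E-box CACGTG, and the NF-Y box CCAAT, each searched on both strands (ATTGG is CCAAT on the other strand, and TCACCCCAC is a case of TCACNCCAC).
SC4MOL, chr4:165327419-165327718, plus strand: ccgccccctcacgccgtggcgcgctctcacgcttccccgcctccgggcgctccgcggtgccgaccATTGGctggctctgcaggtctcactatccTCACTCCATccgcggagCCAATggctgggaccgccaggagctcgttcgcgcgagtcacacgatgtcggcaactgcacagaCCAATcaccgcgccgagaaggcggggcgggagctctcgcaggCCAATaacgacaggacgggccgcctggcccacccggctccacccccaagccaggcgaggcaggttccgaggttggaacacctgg
EBP, chrX:48521558-48521857, plus strand: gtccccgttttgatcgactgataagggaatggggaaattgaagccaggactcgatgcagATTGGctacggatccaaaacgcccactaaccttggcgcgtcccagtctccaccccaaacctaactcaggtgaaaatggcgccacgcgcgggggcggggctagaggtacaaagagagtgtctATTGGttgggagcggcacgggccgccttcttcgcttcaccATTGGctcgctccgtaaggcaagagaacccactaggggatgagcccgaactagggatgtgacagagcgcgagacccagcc
In SC4MOL a TCACTCCAT lies at position -156 relative to the start site, among 4 NF-Y boxes. EBP has 3 NF-Y boxes and no match to the sterol response element forms in this window. An NF-Y box was found in 21 of 29 genes (72.4%), against 43.8% of 10204 matched tested genes. Counted by window it was in 25 of 41, against 34.6% of all 35116 windows. TCACNCCAT was found in SC4MOL only, against 0.637% of tested genes and 0.632% of windows. Genes with an NF-Y box include MVD, NSDHL and HSD17B7, with log2 folds of -0.70, 0.21 and -0.25. None was found in the windows of CYP51A1 and PMVK, with log2 folds of 0.92 and 0.86. A relation of the boxes to the folds was not tested.

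The steps from farnesyl diphosphate to lanosterol were uneven. FDFT1, the squalene synthase (chromosome 8, 11653082 to 11696904), had 195 and 134 in the pools, against 133 in the vector library, so that pool 2 and the vector library were nearly equal. SQLE, the squalene epoxidase, had 84.0 and 56.7 in the pools, against 40.6 in the vector library. LSS, the lanosterol synthase, had 45.4 and 26.0 in the pools, against 17.5 in the vector library. Its log2 folds of 1.32 and 0.54 differed between the pools by -0.78, more than those of any other gene here except FASN.

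Among the enzymes that convert lanosterol to cholesterol, CYP51A1, the lanosterol demethylase, which shares 89.6% of its exon bases with an unnamed gene on the same strand, had 117 and 90.6 in the pools, against 53.8 in the vector library. DHCR7, which makes the last reduction, had 93.7 and 73.2 in the pools, against 49.1 in the vector library. SC5DL (current symbol SC5D), the sterol desaturase before it, had 22.8 and 18.6 in the pools, against 11.2 in the vector library. These genes had log2 folds of 0.92, 0.74 and 0.83, none past the limma test (adjusted p = 0.179, 0.22 and 0.229). The annotation lists 3 CYP51A1 pseudogenes.

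Some sterol enzymes did not share the margin. TM7SF2, a sterol reductase, had 16.1 and 15.3 in the pools, against 14.5 in the vector library, a log2 fold of 0.11. NSDHL, the dehydrogenase that works beside SC4MOL, had 47.6 and 37.1 in the pools, against 36.1 in the vector library, a log2 fold of 0.21. HSD17B7, the ketosteroid reductase of the same complex, had 29.7 and 30.4 in the pools, against 36.0 in the vector library, a mean fold of -0.25 on the log2 scale (SE 0.20; limma, adjusted p = 0.453). Vector values as large as the HSD17B7 difference of 5.98 between the vector library and the pool mean occurred in 24.8% of the transcripts at 0 in both pools. The part of that excess in HSD17B7 was not tested. The annotation lists 2 HSD17B7 pseudogenes. Thus SC4MOL, NSDHL and HSD17B7, which act in turn on the same substrate, had log2 folds of 1.46, 0.21 and -0.25.

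**Figure D2:**
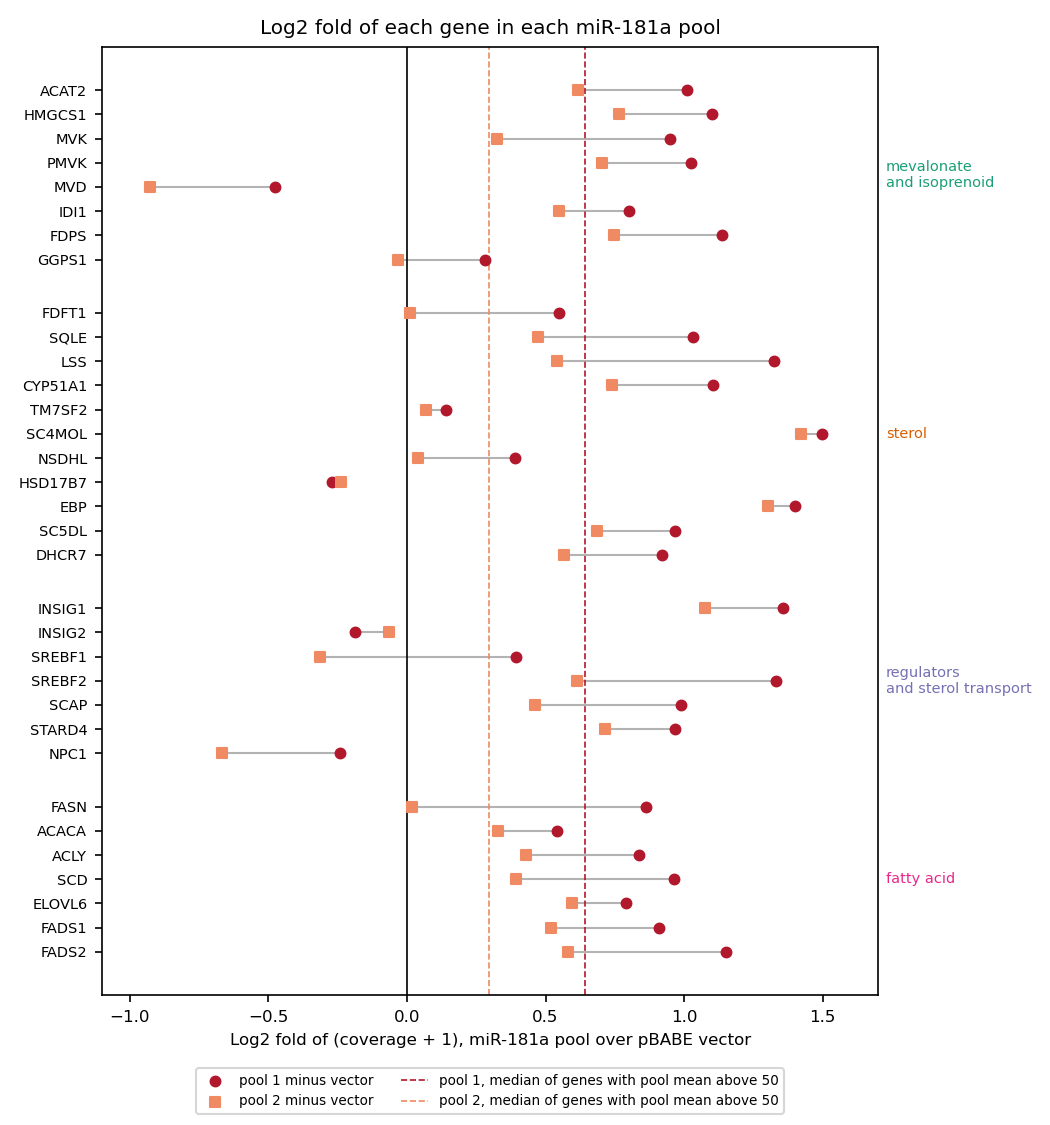
Log2 fold of coverage + 1 over the vector library for each of the 33 genes in miR-181a pool 1 and pool 2, with dashed lines at the medians of 0.64 (pool 1) and 0.30 (pool 2) over tested genes with a pool mean above 50. SC4MOL, EBP and INSIG1 lie at 1 or more in both pools, and GGPS1 and SREBF1 lie on both sides of 0.

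The INSIG genes, which encode the proteins that retain SCAP in the endoplasmic reticulum, differed from each other. INSIG1 (chromosome 7, 155089486 to 155101945) had 49.1 and 40.2 in the pools, against 18.5 in the vector library. Its log2 fold was 1.22 (SE 0.26, limma adjusted p = 0.116), and all 3 of its transcripts met the size rule, with folds from 1.22 to 1.55. INSIG2 (chromosome 2, 118846028 to 118868573) had 9.19 and 10.1 in the pools, against 10.6 in the vector library. Its log2 fold was -0.13 (SE 0.26, limma adjusted p = 0.759), and it had the lowest pool mean of the 33 genes. Vector values as large as its difference of 0.967 between the vector library and the pool mean occurred in 51.2% of the transcripts at 0 in both pools. The part of that excess in INSIG2 was not tested.

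SREBF2, which encodes the SREBP of cholesterol synthesis (chromosome 22, 42229109 to 42303310), had 138 and 83.5 in the pools, against 54.2 in the vector library. It stood above the vector library in both, with log2 folds of 1.33 and 0.62 that lay far apart (mean 0.97, SE 0.45, limma adjusted p = 0.282). SREBF1, which encodes the SREBP isoforms best known for fatty acid synthesis (chromosome 17, 17713713 to 17740316), had 66.5 and 40.3 in the pools, against 50.4 in the vector library. The vector value lay between the pools in this transcript. In the other transcript of SREBF1 the pools had 62.8 and 40.0 against 38.0 in the vector library. SCAP, the carrier of both SREBPs, had 70.7 and 48.6 in the pools, against 35.1 in the vector library, a log2 fold of 0.73.

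The windows of the regulators are given because INSIG1 and SREBF2 are themselves SREBP targets.
INSIG1, chr7:155297628-155297927, plus strand: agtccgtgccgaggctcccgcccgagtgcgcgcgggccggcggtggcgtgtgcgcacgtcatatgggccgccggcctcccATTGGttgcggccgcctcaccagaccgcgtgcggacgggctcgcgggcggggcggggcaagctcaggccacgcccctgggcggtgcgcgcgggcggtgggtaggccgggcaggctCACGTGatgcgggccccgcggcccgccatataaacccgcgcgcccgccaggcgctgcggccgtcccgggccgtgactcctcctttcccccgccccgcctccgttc
SREBF2, chr22:41832855-41833154, plus strand: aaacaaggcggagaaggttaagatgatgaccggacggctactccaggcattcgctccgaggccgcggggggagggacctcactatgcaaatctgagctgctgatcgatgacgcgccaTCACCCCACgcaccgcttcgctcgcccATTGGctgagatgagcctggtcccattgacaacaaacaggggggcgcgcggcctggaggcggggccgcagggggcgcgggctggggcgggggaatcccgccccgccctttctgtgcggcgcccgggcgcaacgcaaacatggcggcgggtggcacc
SREBF2 holds TCACCCCAC at position -133, the only match to TCACNCCAC among the 29 genes, against 1.52% of tested genes and 1.13% of windows. The narrower TCACCCCAC was in 0.608% of tested genes and 0.43% of windows. INSIG1 holds an E-box at -55 and an NF-Y box at -170. An E-box was found in 4 of 29 genes (INSIG1, LSS, SC5DL and SCAP, 13.8%), against 12.6% of tested genes. Counted by window it was in 5 of 41, against 7.26% of all windows. These matches describe letters in a window and not binding.

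The sterol carriers differed. STARD4, which carries sterol through the cytosol, had 43.9 and 36.7 in the pools, against 21.99 in the vector library, a mean fold of 0.84 on the log2 scale (SE 0.25; limma, adjusted p = 0.18). NPC1, which exports cholesterol from lysosomes (chromosome 18, 21086148 to 21166470), had 16.3 and 11.9 in the pools, against 19.4 in the vector library, with a log2 fold of -0.45 and an SE of 0.36 (limma adjusted p = 0.458). Vector values as large as its difference of 5.35 between the vector library and the pool mean occurred in 26.8% of the transcripts at 0 in both pools. The part of that excess here was not tested.

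Fatty acid genes were higher in both pools in 7 of 7 cases, with the lowest median of the 4 steps. Among other tested genes with a pool mean from 100 to 200, where the median gene of this step lies, 79.4% were higher in both pools. ACLY, which splits citrate to give cytosolic acetyl-CoA, had 204 and 153 in the pools, against 114 in the vector library. ACACA, the acetyl-CoA carboxylase, had 50.0 and 42.9 in the pools, against 34.0 in the vector library. FASN, the fatty acid synthase (chromosome 17, 80036214 to 80056170), had 226 and 125 in the pools, against 124 in the vector library. Only pool 1 stood clear of the vector library for FASN, and its difference between the pools (-0.85, pool 2 minus pool 1) was the widest of the 33 genes. These 3 genes had log2 folds of 0.63, 0.44 and 0.44, and none passed the limma test (adjusted p = 0.282, 0.312 and 0.593).

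Desaturases and the elongase followed. SCD, the stearoyl-CoA desaturase (chromosome 10, 102106990 to 102124583), had 440 and 296 in the pools, against 225 in the vector library. FADS1 and FADS2, neighbouring genes of chromosome 11 that desaturate polyunsaturated fatty acids, had log2 folds of 0.71 and 0.86. FADS1 had 74.4 and 56.6 in the pools, against 39.2 in the vector library. FADS2 had 142 and 95.3 in the pools, against 63.4 in the vector library. ELOVL6, the elongase of saturated chains, had 69.0 and 60.1 in the pools, against 39.5 in the vector library. Its pools were the closest together of the 7 fatty acid genes, with a difference of -0.19 on the log2 scale (pool 2 minus pool 1).

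By step, the median log2 fold in pool 1 and pool 2 was 0.98 and 0.58 for mevalonate and isoprenoid genes, 0.97 and 0.54 for sterol genes, 0.97 and 0.46 for regulators and carriers, and 0.86 and 0.43 for fatty acid genes. Mean folds over both pools ranged from -0.70 to 0.94, from -0.25 to 1.46, from -0.45 to 1.22 and from 0.44 to 0.86 in the same order. The medians of the 4 steps thus differed by less than the 2 pools differed within any step. Fatty acid genes had the narrowest range.

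Other genes in the same range of pool mean are given for reference, although the pool mean enters the fold itself and such genes are not matched independently of it. Between a pool mean of 50 and 100, 10 of the 33 genes had a median log2 fold of 0.72, against 0.46 for 1180 other tested genes. Between 100 and 200, 9 genes had a median of 0.86, against 0.50 for 530 others. Between 200 and 1000, the 2 genes (FDPS and SCD) had a median of 0.81, against 0.47 for 343 others. From 20 to 50, 8 genes had a median of 0.63, against 0.35 for 2707 others. The 4 genes between 5 and 20 (MVK, TM7SF2, NPC1 and INSIG2) had a median of -0.01, against 0.13 for 4189 others.

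**Figure D3:**
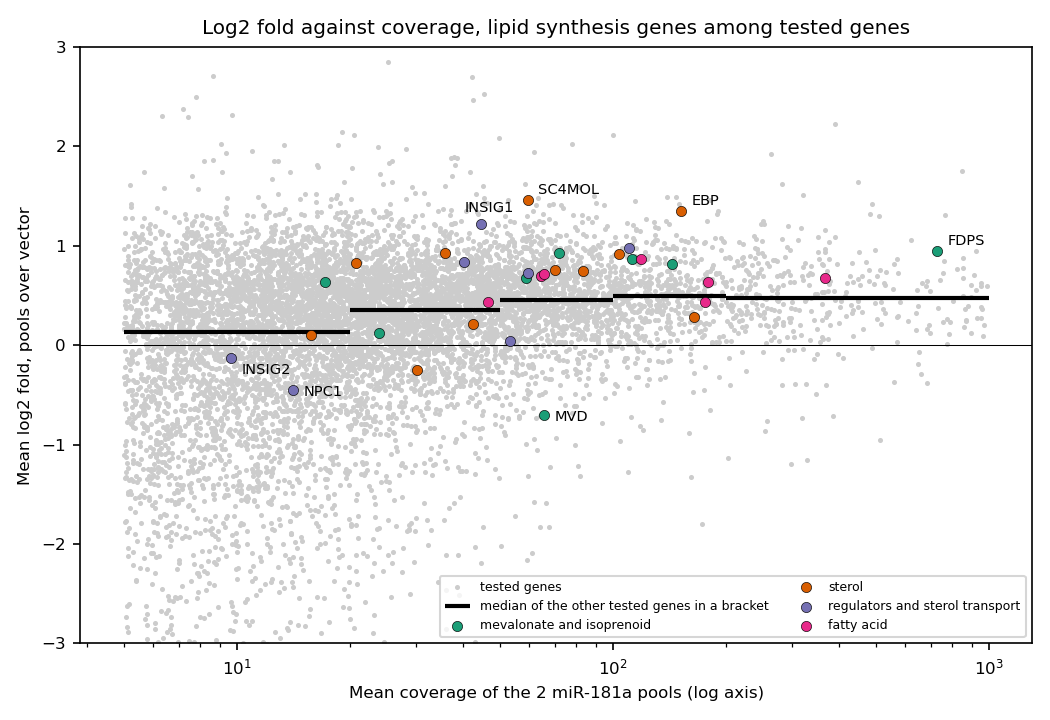
Mean log2 fold of the pools over the vector library against mean pool coverage (log axis), with the 33 genes coloured by step, other tested genes in grey and the median of the other genes in each coverage bracket as a black bar; points beyond -3 and 3 are not drawn. Median bars lie from 0.13 to 0.50, and SC4MOL, EBP and INSIG1 lie above 1.

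When each pool was shifted by its median over genes with a pool mean above 50, the medians of the steps were 0.27 for mevalonate and isoprenoid genes, 0.28 for sterol genes, 0.25 for regulators and carriers and 0.21 for fatty acid genes. With that shift, limma called 8 genes higher (SC4MOL, EBP, INSIG1, SREBF2, FDPS, LSS, HMGCS1 and CYP51A1) and 5 lower (MVD, NPC1, HSD17B7, INSIG2 and SREBF1). No fatty acid gene was called in either direction. The background of these calls was 5.66% of all tested genes higher and 46.1% lower, and 13.1% and 14.7% of those with a pool mean above 50. SC4MOL, EBP and INSIG1 had log2 folds of 0.99, 0.88 and 0.75 after the shift, while FASN and ACACA turned to -0.031 and -0.036. FDFT1, NSDHL, TM7SF2, GGPS1 and SREBF1 turned below 0 as well, so their direction depends on the scaling. The shift also aligns the pools with each other, which changes the spread that limma shares across genes. The SE of FASN was 0.18 after the shift, against 0.52 before. With library medians set equal, limma called 29 of the 33 higher and 0 lower, beside 50.6% and 29.5% of all tested genes and 89.5% and 1.79% of those with a pool mean above 50. After quantile normalization, an alternative chosen after seeing the data, it called 24 higher and 1 lower, beside 44.9% and 26.6% of all tested genes and 49.6% and 2.92% of those with a pool mean above 50. HSD17B7 and INSIG2 turned above 0 with library medians set equal.

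**Figure D4:**
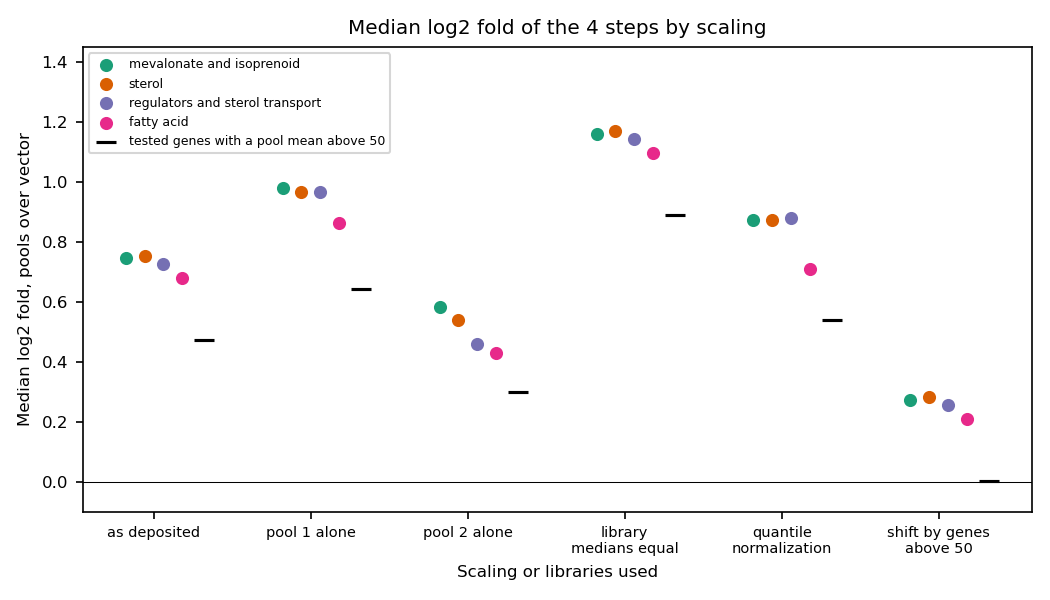
Median log2 fold of each step under 6 treatments of the data (as deposited, pool 1 alone, pool 2 alone, library medians set equal, quantile normalization, shift by genes with a pool mean above 50), with the median of tested genes with a pool mean above 50 as a black dash. All 4 step medians lie above the dash in each treatment, from 0.21 to 0.28 against 0.00 after the shift.

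Transcripts of the same gene mostly shared a direction. Of the 33 genes, 15 had several RefSeq transcripts in the table, and in 13 of these every transcript was higher in both pools. The exceptions were SREBF1 and GGPS1. Transcripts of a gene can share reads, so this agreement is not independent, and the same share over other genes was not counted. The transcripts of NSDHL and those of SC5DL had identical values. Some transcripts of FDPS, LSS, HMGCS1, MVK, ACACA and ELOVL6 had the values of both pools in common. Some of INSIG1, DHCR7 and GGPS1 had the value of a single pool in common. ACACA had 5 transcripts with log2 folds from 0.44 to 0.83, and the one with the highest mean coverage was the lowest of them. DHCR7 ranged from 0.74 to 1.07 and MVK from 0.64 to 1.04, in each case through the vector value, since the pools gave nearly the same coverage for both transcripts.

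**Figure D5:**
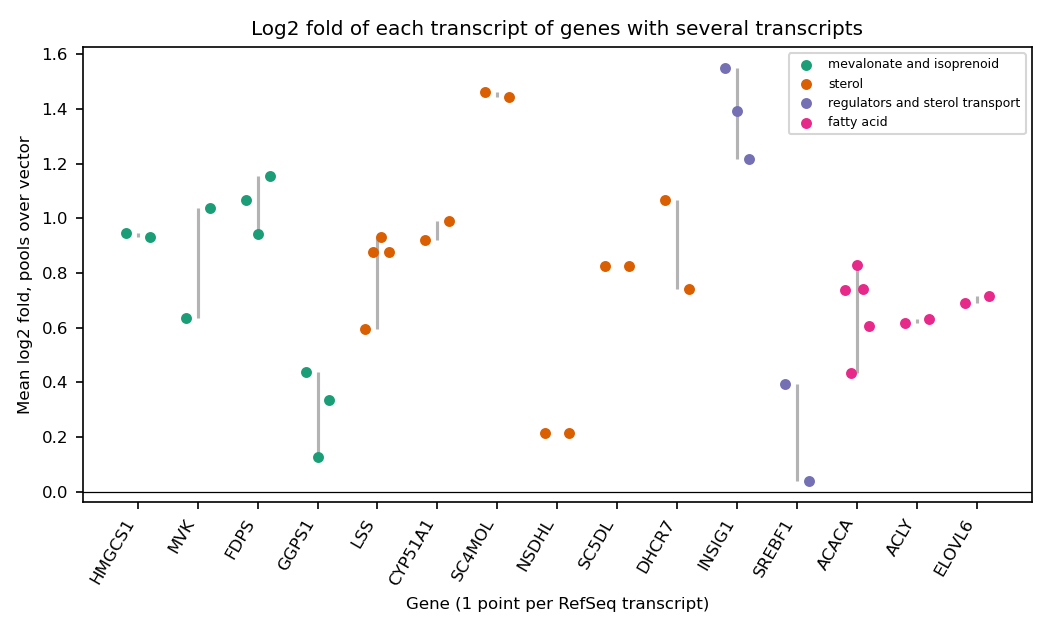
Mean log2 fold of the pools over the vector library for each RefSeq transcript of the 15 genes with several transcripts, coloured by step. All points lie above 0, from 0.04 for SREBF1 to 1.55 for INSIG1.

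Sites for miR-181a were looked for because the study asks which genes it targets. The mature miR-181a-5p of MIR181A1 and MIR181A2 (RefSeq, GRCh38.p14) is shown with its seed, bases 2 to 8, in capitals.
hsa-miR-181a-5p: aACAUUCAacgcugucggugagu
The complementary 7-mer TGAATGT occurs in the annotated 3 prime UTR of 7 of the 33 genes (21.2%), against 20.7% of 12290 tested genes and 14.9% of those with a pool mean above 50. Sites are shown in transcript orientation with the 7-mer in capitals, coordinates on GRCh37.
SCD, chr10:102121245-102121269, plus strand: tagcatgtaTGAATGTaaggatgag
SCD, chr10:102123845-102123869, plus strand: gaaataattTGAATGTatttgattt
STARD4, chr5:110834316-110834340, minus strand: tttctaaatTGAATGTacttttgaa
GGPS1, chr1:235506303-235506327, plus strand: ggtctgattTGAATGTcataattgc
NPC1, chr18:21111868-21111892, minus strand: agatggctgTGAATGTgatccgctc
ELOVL6, chr4:110969945-110969969, minus strand: tttacagggTGAATGTcttaatagt
SC5DL has 2 further matches and FDFT1 has 1. Only those of SCD and STARD4 are followed by an A, which extends the match. Of the 7 genes, NPC1 alone had a log2 fold below 0, and the median was 0.68, against 0.73 for the 26 genes without a match. Over all tested genes the medians with and without a match were 0.06 and 0.08. Among those with a pool mean above 50 the order was reversed, with medians of 0.52 and 0.47. A log2 fold above 0 was seen in 1322 of 2547 tested genes with a match. With a pool mean above 50 it was seen in 273 of 312. No value for mature miR-181a was used here.

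Other genes of SREBP control were counted from lists of named genes. Of 13 other sterol pathway genes and SREBP targets, 11 were tested. All 11 exceeded the vector library in both pools, their median was 0.86 on the log2 scale, and none passed the limma test (2 had an unadjusted p under 0.05). Of tested genes with a pool mean above 50, 77.5% exceeded it in both, their median was 0.47, and 1.0% of all tested genes were called higher. LPIN1, a phosphatidate phosphatase, had 22.3 and 16.8 in the pools, against 7.47 in the vector library. ACSS2, which makes acetyl-CoA from acetate, had 23.6 and 17.5 in the pools, against 7.73 in the vector library. These log2 folds were 1.27 and 1.29.

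Of 13 genes of SREBP processing and sterol-regulated degradation, 8 were higher and 3 lower in both pools, with a median of 0.56. Of other genes with a pool mean from 20 to 50, where the median gene of this list lies, 61.2% were higher and 18.3% lower in both pools, so the count was near that share. The limma test called 1 of the 13 higher, beside 1.0% of all tested genes. PAQR3, a Golgi protein that anchors the SCAP and SREBP complex, rose to 7.39 and 6.25 in the pools, against 2.18 in the vector library (log2 fold 1.29, SE 0.15, limma with Benjamini-Hochberg adjustment, adjusted p = 0.0422). The protease gene MBTPS1, which makes the first SREBP cut, had 66.4 and 53.3 in the pools, against 25.3 in the vector library. Its log2 fold was 1.202 (limma adjusted p = 0.117).

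Genes of cholesterol uptake, storage and efflux were mixed, with 8 of 12 tested genes higher and 3 lower in both pools, again near the 61.2% and 18.3% of other genes with a pool mean from 20 to 50. The 3 lower ones fell past the limma test, which called 21.7% of all tested genes lower, so this count too was near the background. MYLIP, a ubiquitin ligase driven by the sterol sensor LXR that degrades lipoprotein receptors, had 0.673 and 0.303 in the pools, against 92.4 in the vector library (log2 fold -5.98, limma adjusted p = 0.00537). ABCG1, an LXR-driven cholesterol exporter, had 0 and 0.403 in the pools, against 49.5 in the vector library, but only 2 of its 6 transcripts were lower in both pools. VLDLR, a lipoprotein receptor, had 0.706 and 1.24 in the pools, against 15.3 in the vector library. SOAT1, which esterifies cholesterol for storage, had 50.8 and 41.1 in the pools, against 20.2 in the vector library. Genes near 0 in both pools are those on which the excess of the vector library bears most, and its part in these falls was not tested.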

How the data were processed

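Polyadenylated RNA of A2780 cells was sequenced, per the labels' protocols, in 2 miR-181a libraries and 1 pBABE vector library. The deposited table gives coverage per RefSeq transcript, the median of read density in sliding windows, per the labels' protocols, aligned to hg19 per the submitters' processing notes. A log transform and quantile normalization are also named there, yet the deposited signal values are linear and their quantiles differ between libraries. The sources used here give neither aligner nor read counts, so no counting interval could be made. Of 29156 rows, 308 with a blank vector value were left out, and 6 columns of comparisons were not used.

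Each gene was represented by its transcript with the highest mean over the 3 libraries. The lowest 25% of genes above 0 somewhere were removed, and log2(coverage + 1) of 12552 genes was fitted with limma 3.58.1 (R 4.3.3, empirical Bayes with a trend) and Benjamini-Hochberg adjustment. The fit has 1 residual degree of freedom, and the single vector library is taken to vary as the pools do. The script was tested on simulated data in which all 3 libraries had the spread seen between the pools and the vector library had no excess. That test required only that estimated folds lie near those put in, so it does not bear on calls against the single vector library. Fold changes on this scale understate those of low genes. Alternatives were the pseudocount, filter, scaling, choice of transcript, variance trend and leaving out each pool. Genes named outside the 33 were those past the test and up to 4 of the widest per list with 1 direction in both pools, of which examples are given and some are not reported here. The 33 genes and all lists were chosen with earlier results of these data known.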

Additional observations from a re-analysis of the deposited data

How the results depend on the processing

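No paired analysis was possible, there being 1 vector library. The replicate numbers count libraries within a group and name no pairs. The count of the 33 genes past the limma test higher, 0 as reported, was 2 with a pseudocount of 0.1, 1 with no filter, 2 with a filter at the median, 2 with no variance trend, 29 with library medians set equal, 8 after the shift by genes with a pool mean above 50, and, in settings chosen after seeing the data, 24 after quantile normalization and 2 over genes above 0 in both pools. The count lower, 0 as reported, was 5 after the shift and 1 after quantile normalization. Over all tested genes, 126 of 12552 higher as reported became 278 of 16737 with no filter and 402 of 8368 with a filter at the median. That count was 6355 with library medians set equal, 710 after the shift and 5641 after quantile normalization. Over the 8978 genes above 0 in both pools it was 232. The 2725 lower became 5626 with no filter, 1476 with a filter at the median, 5784 after the shift and 1196 over genes above 0 in both pools. By the size rule, 3 higher became 20 with library medians set equal, 0 after the shift, 9 after quantile normalization, 17 at 0.5 log2 units and 3 to 12 when either pool was left out, and 0 lower became 1 after the shift. The 4 genes lower in both pools became 1 with library medians set equal, 9 after the shift and 2 after quantile normalization. For these counts the shares over all tested genes in the same setting were not taken, so they cannot be read as particular to the 33 genes. The median log2 fold of tested genes with a pool mean above 50 was itself 0.89 with library medians set equal. It was 0.54 after quantile normalization and 0.00 after the shift. With library medians set equal, the median log2 fold was 1.13 over the 33 genes, 1.16 for mevalonate and isoprenoid, 1.17 for sterol, 1.14 for regulators and 1.09 for fatty acid genes. After the shift these were 0.24, 0.27, 0.28, 0.25 and 0.21 in the same order. Leaving out pool 2 or pool 1 gave 0.95 and 0.52 over the 33 genes.

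Directions turned, after the shift, for GGPS1 (-0.34), FDFT1 (-0.19), TM7SF2 (-0.37), NSDHL (-0.26), SREBF1 (-0.43), FASN (-0.031) and ACACA (-0.036). With library medians set equal HSD17B7 turned to 0.16 and INSIG2 to 0.29, and after quantile normalization INSIG2 turned to 0.63. Without pool 1, GGPS1 was at -0.031 and SREBF1 at -0.31, and without pool 2 they were at 0.28 and 0.39. The cause of these changes was not tested, beyond what each scaling does by construction. Of the other log2 folds of single genes under an alternative, 75 passed the threshold. The remaining 342 kept direction and, where a test was run, their side of the threshold. With a pool left out no test was run, so only direction can be read there. Depth is unknown, 1 vector library carries every difference, and its variation was not measured.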

Other observations

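Genes that burn or assemble fatty acids were higher or lower in about the shares seen in other genes. Of other genes with a pool mean from 20 to 50, where the median genes of both lists lie, 61.2% were higher and 18.3% lower in both pools, and over all tested genes the shares were 44.6% and 41.8%. Of 17 genes of fatty acid oxidation, 11 were higher and 4 lower in both pools. Their median was 0.60 on the log2 scale. CPT1A, which admits long chains to mitochondria, had a coverage of 44.05 and 32.96 in the pools, against 9.57 in the vector library (log2 fold 1.89, limma with Benjamini-Hochberg adjustment, adjusted p = 0.0844). HADHA, a subunit of the mitochondrial trifunctional protein, had 273 and 228 in the pools, against 104 in the vector library. ACADS, the short-chain acyl-CoA dehydrogenase, rose to 3.26 and 2.97 in the pools, against 1.54 in the vector library (limma adjusted p = 0.0267), but not after the shift by genes with a pool mean above 50 (log2 fold 0.22, adjusted p = 0.699).

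Of 21 tested genes of other fatty acid synthesis and lipid assembly, 14 were higher and 3 lower in both pools, near the same shares. The limma test called 2 of these 21 lower, beside 21.7% of all tested genes. ACSL3, which activates long-chain fatty acids, had 165 and 135 in the pools, against 55.1 in the vector library (log2 fold 1.42, limma adjusted p = 0.0798). ACACB, the mitochondrial counterpart of ACACA, fell to 3.87 and 3.24 in the pools, against 13.8 in the vector library (log2 fold -1.70, limma adjusted p = 0.0337). ELOVL2, an elongase of polyunsaturated chains, fell to 2.65 and 2.29 in the pools, against 5.94 in the vector library, with a log2 fold of -1.002 that turned to 1.33 after quantile normalization. Of 8 tested genes that use isoprenoids, 3 were higher and 3 lower in both pools, and none passed the limma test (3 had an unadjusted p under 0.05). The median gene of this list lies at a pool mean from 5 to 20. Among other genes there, 46.6% were higher and 36.3% lower in both pools, so these counts were near those shares. PGGT1B and RABGGTA, subunits of protein geranylgeranyl transferases, had log2 folds of -2.05 and -1.49 (limma adjusted p = 0.105 and 0.116), and only 1 of 2 RABGGTA transcripts was lower in both pools. RABGGTB, the partner subunit of RABGGTA, had 57.8 and 63.1 in the pools, against 40.7 in the vector library, a log2 fold of 0.56.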
